A study of Mus musculus with 24 samples.

Results

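The 9 genes described here are the tissue inhibitors of metalloproteinases Timp1, Timp2, Timp3 and Timp4 and the matrix proteases Mmp2, Mmp14, Adamts1, Adamts4 and Adamts5. They were found by their mouse symbols among the 18669 genes of a table of read counts, and each of the 9 was found once. RNA was sequenced from the quadriceps femoris muscle of 24 mice, 2 in each of 12 groups made of 3 genotypes and 4 treatments, and taken 4 h after treatment. All mice carried the same strain label, CBA x C57BL/6 F1. Wild type mice (WT) and R6/2 mice, which express exon 1 of mutant human huntingtin as a transgene and model Huntington's disease, were 12 weeks old. The mice homozygous for the knockout of Hsf1, the transcription factor of the heat shock response, were 10 weeks old in the heat shock (HS) experiment and 8 weeks old in the HSP990 experiment, so that age and genotype cannot be told apart in their comparisons. HS mice were anaesthetised with isoflurane and wrapped up to the head in a heating pad. After a warm-up their core body temperature was held at 41.5 °C for 15 min. In control mice, treated in the same way, it was held at 36.9 °C for 21 min, to match the warm-up and heat shock together. HSP990, an inhibitor of the chaperone HSP90, was given by gavage at 12 mg/kg in 0.2% methyl cellulose and 0.9% saline, and the label of the vehicle mice names 0.9% saline. The comparisons asked how heat, HSP90 inhibition, mutant huntingtin and the loss of HSF1 each altered the transcriptome of the muscle.

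Matrix metalloproteinases (MMPs) are zinc enzymes that cut the collagens and other proteins around muscle fibres, and ADAMTS enzymes cut proteoglycans such as versican and aggrecan. The TIMPs bind the active site of MMPs and block it. MMP14 sits in the cell membrane and, with TIMP2 as a bridge, activates the secreted gelatinase MMP2. In muscle, resident fibroblasts and vessel cells make much of this system, while TIMP4 is known for its restricted expression in heart, skeletal muscle and fat.

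The libraries held 22450177 to 46599238 counts. Values are given as counts scaled to a common library total (CPM) with TMM factors, which correct for the share of reads taken by a few very abundant genes. The factors were 1.19 to 1.40 in R6/2 mice and 0.808 to 0.954 in the others. The 7 muscle fibre markers summed to between 35500 and 79200 CPM in R6/2 mice and between 175000 and 240000 CPM in WT and Hsf1-/- mice, and none of Acta1, Ckm and Myh4 was absent from any library. Hsf1 itself had 488 to 937 counts in Hsf1-/- mice and 1061 to 2523 in the other mice, and was called lower in the knockouts. The 4 Y-linked genes examined had 0 to 4 counts in the WT and R6/2 mice of the HS experiment and 3916 to 9392 in all other mice. Sex by this measure therefore differed between the experiments in WT and R6/2 mice, and between WT and Hsf1-/- mice of the HS experiment, and its part in any such comparison was not tested.

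All 9 genes passed the filter on low counts and were among the 13754 genes tested. A gene is said to be called, to rise or to fall where its adjusted p was at most 0.05 in edgeR's quasi-likelihood test, with the Benjamini-Hochberg adjustment over all genes tested.

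Levels can be compared between genes only per length of exon, here as TMM-scaled CPM per kb. Timp2, Timp3 and Timp4 were the most abundant of the 9 genes in untreated WT muscle. Timp2 stood at 45.4 ± 5.03 CPM per kb (mean and SD, n = 4 control and vehicle mice), Timp3 at 42.3 ± 13.3 and Timp4 at 35.4 ± 5.52. The ranges of Timp2 and Timp3 and those of Timp3 and Timp4 overlapped, so the order of these neighbours was not resolved. Mmp2 followed at 22.4 ± 6.59 CPM per kb and Adamts1 at 17.2 ± 3.09. Mmp2 overlapped in range with both Timp4 and Adamts1. Mmp14 at 4.14 ± 0.767 and Adamts5 at 2.85 ± 0.316 CPM per kb lay below these and apart from each other. Timp1 at 0.5 ± 0.324 and Adamts4 at 0.0642 ± 0.0339 CPM per kb closed the order with overlapping ranges. Over the 24 mice Timp1 had 0 to 46 counts and Adamts4 2 to 99, so changes in them rest on few reads.

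**Figure D1:**
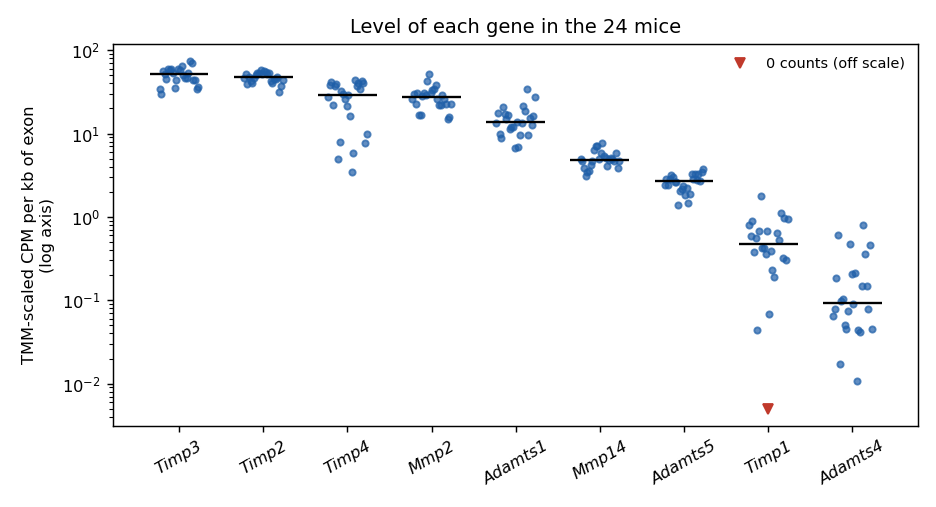
TMM-scaled CPM per kb of exon (log axis) of the 9 genes in each of the 24 mice (points), with the median over all mice (black line). Timp3, Timp2 and Timp4 stand highest with medians of 51.1, 47.2 and 29.3, the low tail of Timp4 is the 6 HSP990 mice, and the red triangle marks 1 mouse with 0 counts of Timp1.

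Timp4 fell after HSP990 in all 3 genotypes. The gene lies on the minus strand of mouse chromosome 6 (115195634 to 115201867 in mm9), within Syn2 on the opposite strand and outside its exons. Its upstream sequence is shown because it was the 1 member called after HSP990 in every genotype. RefSeq promoter windows were at hand for 6 of the 9 genes, and not for Mmp2, Adamts4 and Adamts5. None of these 6 windows, from 250 bases before the start to 50 after it, held the heat shock element core GAANNTTC or the AP-1 core TGANTCA on either strand, against 7.86% and 7.81% of the 32851 windows of all genes. With shares this low over all genes, a lack of matches in 6 windows says little about these genes. The 250 bases before the RefSeq start of Timp4 (build GRCm38.p6, minus strand, chr6:115252206-115252455) read as follows, with no capitals because no motif was matched.
Timp4 upstream: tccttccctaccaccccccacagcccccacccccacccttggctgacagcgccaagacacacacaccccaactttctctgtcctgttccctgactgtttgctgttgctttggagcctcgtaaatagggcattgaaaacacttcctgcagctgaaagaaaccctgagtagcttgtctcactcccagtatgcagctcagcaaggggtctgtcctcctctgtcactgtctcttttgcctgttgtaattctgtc

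In WT mice Timp4 was at 52.1 and 55.9 CPM in the vehicle mice and at 7.09 and 11.2 CPM in the HSP990 mice. In R6/2 mice it was at 41.3 and 23 CPM with vehicle and at 4.91 and 8.3 CPM with HSP990. In Hsf1-/- mice it was at 59.7 and 57.7 CPM with vehicle and at 10.9 and 13.9 CPM with HSP990. Every HSP990 mouse lay below every mouse of the other 9 groups, from which 23 CPM in an R6/2 vehicle mouse was the lowest value. The log2 fold change was -2.55 in WT mice (SE 0.338, adjusted p = 0.00033 by edgeR), or 5.86-fold lower. It was -2.28 in R6/2 mice (SE 0.333, adjusted p = 0.0013) and -2.25 in Hsf1-/- mice (SE 0.331, adjusted p = 0.0045). In these comparisons Timp4 was the 1 member called of the 9, beside 1.85% of all tested genes in WT, 1.43% in R6/2 and 0.218% in Hsf1-/- mice. Averaged over the 3 genotypes, a comparison chosen after seeing the data, the fall was -2.36 (SE 0.193, adjusted p = 1e-06 by edgeR), or 5.14-fold, again as the 1 member called beside 4.65% of genes. When each genotype was fitted on its own 4 libraries the fold changes in R6/2 and Hsf1-/- mice were as large, but the adjusted p was 0.14 and 0.085, and without the first HSP990 mouse of Hsf1-/- the adjusted p there was 0.12.

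The genotypes did not differ detectably in this fall. Relative to WT mice the HSP990 response of Timp4 differed by 0.27 on the log2 scale in R6/2 mice (95% interval -0.69 to 1.24, adjusted p = 0.94 by edgeR) and by 0.30 in Hsf1-/- mice (-0.66 to 1.26, adjusted p = 0.95), intervals that leave room for differences of more than 2-fold. Of the 4 adipocyte markers 3, 4 and 3 were higher after HSP990 in WT, R6/2 and Hsf1-/- mice, none of them called. The sum of the 4 adipocyte markers was 33.8 and 161 CPM with vehicle and 29 and 182 CPM with HSP990 in WT mice, 26.6 and 49.5 against 62 and 78.2 CPM in R6/2 mice, and 80.7 and 220 against 87.1 and 488 CPM in Hsf1-/- mice. These sums spread widely within the WT and Hsf1-/- groups, and the part of adipocytes in the Timp4 values was not tested. The muscle fibre markers summed to 206000 and 210000 CPM with vehicle and 189000 and 203000 CPM with HSP990 in WT mice, to 37200 and 43800 against 45300 and 79200 CPM in R6/2 mice, and to 227000 and 240000 against 175000 and 197000 CPM in Hsf1-/- mice. These sums were lower after HSP990 without overlap in WT and Hsf1-/- mice and higher without overlap in R6/2 mice, no fibre marker was called, and their part in the Timp4 values was not tested. In bulk muscle, fewer cells of a type and less RNA per cell cannot be told apart. Syn2, on the other strand, had 3 to 66 counts per mouse and Timp4 142 to 2081. The strand setting of the counting is not given in the sources used here, and reads shared between the genes were not tested.

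The other TIMPs were called after HSP990 in no genotype, and the balance of the family shifted with Timp4. Of the summed CPM per kb of the 4 TIMPs, Timp4 made up 29.4% and 28.2% in the WT vehicle mice and 4.57% and 6.58% in the WT HSP990 mice. The shares were 20.5% and 12% against 3.29% and 5.6% in R6/2 mice, and 31.6% and 34.9% against 9.62% and 10.8% in Hsf1-/- mice. These shares restate the fall of Timp4 against TIMPs that were not called, and carry no test.

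**Figure D2:**
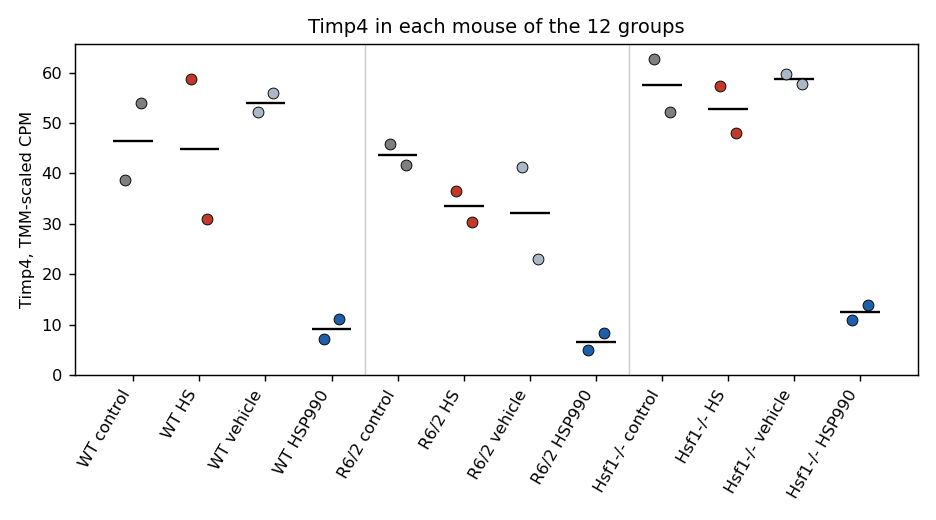
TMM-scaled CPM of Timp4 (vertical axis, linear from 0) in each of the 2 mice (points) of the 12 groups, with the group mean (line). The 6 HSP990 mice lie between 4.91 and 13.9 CPM and all other mice at 23 CPM or above.

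After HS no change in Timp4 was detectable. It stood at 38.7 and 54 CPM in WT control and 58.8 and 30.9 CPM in WT HS mice, at 45.8 and 41.7 against 36.6 and 30.3 CPM in R6/2 mice, and at 62.8 and 52.2 against 57.4 and 48 CPM in Hsf1-/- mice. The groups overlapped in WT and Hsf1-/- mice and not in R6/2 mice. The log2 fold changes were -0.05 (95% interval -0.71 to 0.62), -0.39 (-1.05 to 0.27) and -0.13 (-0.79 to 0.54), none of them called. The HS and HSP990 responses share no mice, and their difference for Timp4 was called in WT mice (2.51, SE 0.456, adjusted p = 0.0066 by edgeR) and in R6/2 mice (1.89, SE 0.451, adjusted p = 0.042), each time as the 1 member called, beside 2.38% and 1.63% of genes. In Hsf1-/- mice the difference was 2.13 (SE 0.451, adjusted p = 0.086) and no member was called by edgeR, beside 0.145% of genes, although 2 of the 9 had an unadjusted p below 0.05 and DESeq2 called Timp4. The R6/2 call was lost without either control mouse and without the first HS, vehicle or HSP990 mouse, with differences of 1.41 to 1.96 and adjusted p of 0.086 to 0.19. It was also lost with only the groups compared (1.89, adjusted p = 0.15) and with library size only (1.83, adjusted p = 0.056).

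**Figure D3:**
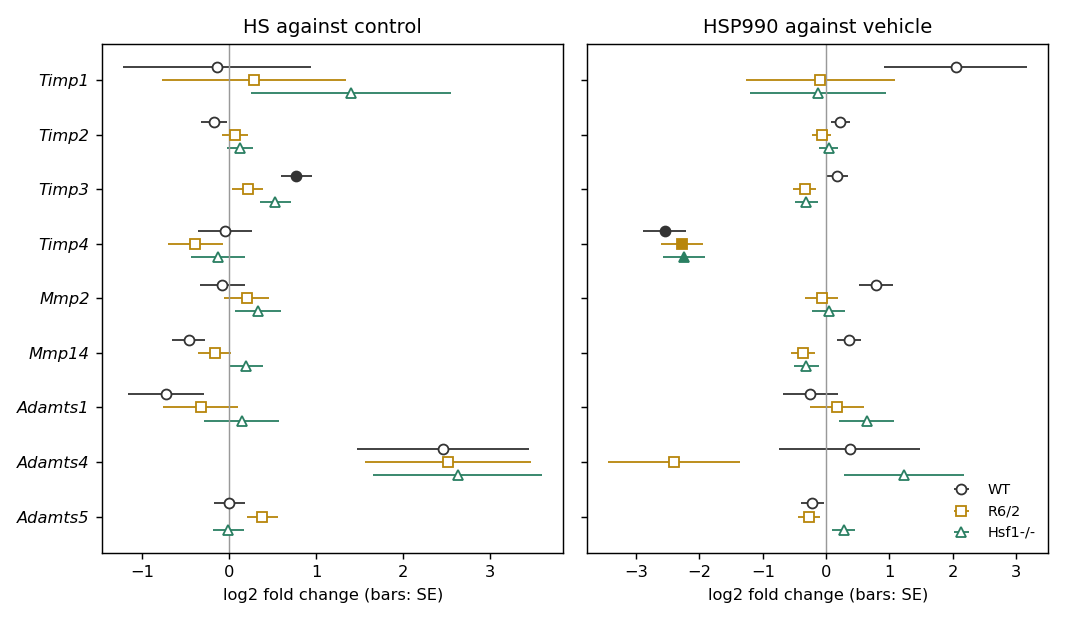
Log2 fold change (horizontal axis, bars are SE) of the 9 genes after HS against control and after HSP990 against vehicle in WT (circles), R6/2 (squares) and Hsf1-/- mice (triangles), 2 mice against 2, with filled symbols for called values. Timp4 after HSP990 is filled in all 3 genotypes at -2.55, -2.28 and -2.25, and Timp3 after HS in WT mice at 0.77, and the long bars of Timp1 and Adamts4 go with their low counts.

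Timp3, the TIMP that stays bound to the matrix and also inhibits ADAMTS4, ADAMTS5 and the sheddase ADAM17, rose after HS. It lies on chromosome 10 (85763117 to 85812251, plus strand, mm9) and shares 1733 bases of exon with Syn3 on the other strand, which had 0 to 38 counts against 6205 to 23009 for Timp3. In WT mice it was at 279 and 244 CPM in controls and at 465 and 425 CPM after HS. In R6/2 mice it was at 434 and 288 against 353 and 480 CPM, and in Hsf1-/- mice at 373 and 429 against 598 and 564 CPM. The groups were apart in WT and Hsf1-/- mice and overlapped in R6/2 mice.

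The rise was called in WT mice alone (0.77, SE 0.179, adjusted p = 0.033 by edgeR), the 1 member called there beside 2.06% of genes. It was 0.53 in Hsf1-/- mice (SE 0.178, adjusted p = 0.30) and 0.21 in R6/2 mice (SE 0.177, adjusted p = 0.82), where no member was called by edgeR or DESeq2, beside 0.00727% and 0.0436% of genes, and 2 and 1 of the 9 had an unadjusted p below 0.05. These values do not show that the genotypes differ: the difference from WT mice was -0.56 in R6/2 mice (95% interval -1.09 to -0.03, adjusted p = 0.99). The mean over the 3 genotypes, chosen after seeing the data, was 0.50 (SE 0.103, adjusted p = 0.0065), or 1.42-fold, and Timp3 was 1 of 2 members called, beside 6.14% of genes. The WT call alone was fragile, with adjusted p between 0.12 and 0.27 without any 1 of its 4 mice, and 0.076 when scaled by library size only. The WT vehicle mice, which had not been heated, were at 368 and 486 CPM, so that the WT controls of the HS experiment were the lowest of all 12 groups for Timp3. After HSP990 Timp3 was not called in any genotype (0.17, -0.34 and -0.31).

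Timp2, the TIMP that bridges MMP14 and MMP2, was the steadiest of the 9 genes, and Timp1, an inducible inhibitor of many MMPs, was close to the limit of detection. Timp2 ranged from 123 to 227 CPM over all mice, with group means within 1.4-fold of each other, and was called in none of the treatment comparisons. Timp1 ranged from 0 to 1.59 CPM. Its largest treatment difference was 2.05 after HSP990 in WT mice (SE 1.13, adjusted p = 0.47), from 12 and 1 counts with vehicle to 12 and 46 with HSP990, which this depth could not resolve.

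Mmp2, the secreted gelatinase A, and Mmp14, its membrane-bound activator, were higher in untreated R6/2 than in WT muscle, and Adamts5, an aggrecanase, was lower. Mmp2 lies on chromosome 8 (95351227 to 95377316), Mmp14 on chromosome 14 (55050441 to 55060095) and Adamts5 on chromosome 16 (85858415 to 85901370, all mm9). Mmp2 was at 88.9 and 129 CPM in R6/2 against 78.9 and 90.9 CPM in WT control mice, and at 101 and 105 against 51.4 and 51.3 CPM in vehicle mice. Mmp14 was at 16.6 and 18.6 against 12.7 and 12.2 CPM in control mice, and at 15 and 20.1 against 8.86 and 9.23 CPM in vehicle mice. Adamts5 was at 11.4 and 16.6 against 19.5 and 23.2 CPM in control mice, and at 15 and 17.8 against 25.5 and 24.1 CPM in vehicle mice. The R6/2 and WT groups overlapped for Mmp2 in control mice.

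The mean over both experiments was 0.68 for Mmp2 (SE 0.185, adjusted p = 0.011 by edgeR), 0.72 for Mmp14 (SE 0.136, adjusted p = 0.00074) and -0.61 for Adamts5 (SE 0.128, adjusted p = 0.0018). These 3 of 9 members called stand beside 30.5% of all genes called in the same comparison, so the share of the members was close to that of all genes. In control mice alone 1 member, Adamts5 (-0.61, adjusted p = 0.036), was called beside 12.4% of genes, while Mmp2 (0.36, adjusted p = 0.42) and Mmp14 (0.50, adjusted p = 0.10) were not. In vehicle mice alone Mmp2 (1.00, adjusted p = 0.013), Mmp14 (0.95, adjusted p = 0.0025) and Adamts5 (-0.60, adjusted p = 0.028) were called beside 19.2% of genes. The difference between the experiments was called for no member by edgeR, a test chosen after seeing the data, and none had an unadjusted p below 0.05. Without the second R6/2 control mouse the adjusted p of Mmp2 was 0.051. Timp2 (0.26, adjusted p = 0.08) and Timp3 (0.34, adjusted p = 0.051) were not called. Timp2 was called with only the groups compared (0.25, adjusted p = 0.033 by edgeR), and Timp3 by DESeq2 (0.33, adjusted p = 0.039). Timp3 was also called without the second WT vehicle mouse (0.45) and without the second R6/2 control mouse (0.47). Timp4 was called as lower in R6/2 mice without the first R6/2 vehicle mouse (-0.66).

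Scaling sets where 0 lies in this comparison. With library size only, the median of all genes in R6/2 mice shifted to 0.66, from 0.05 with TMM, and the values became 1.28 for Mmp2, 1.33 for Mmp14 and 0 for Adamts5, whose lower level was then no longer called, while Timp2 (0.86) and Timp3 (0.95) were called as higher. Relative to the median of all genes the values were 0.62, 0.67 and -0.66, against 0.63, 0.67 and -0.66 with TMM. The fibroblast markers, which come from the cells known for much of the Mmp2 and Mmp14 of muscle, summed to 938 and 1410 CPM in R6/2 against 1440 and 1690 CPM in WT control mice, and to 1200 and 1240 against 1080 and 1090 CPM in vehicle mice. Of the 9 markers 1 was called higher in R6/2 mice, and their part in these differences was not tested.

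**Figure D4:**
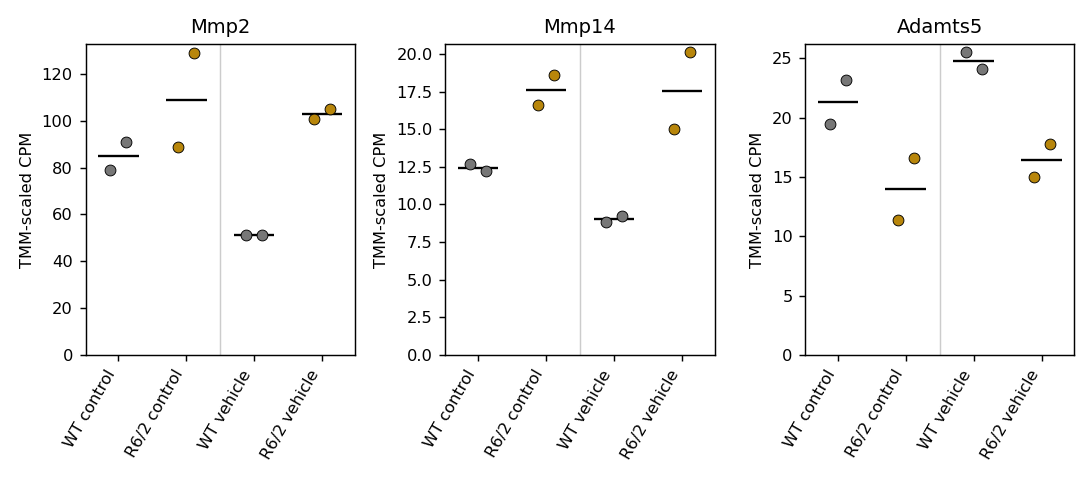
TMM-scaled CPM (vertical axis, linear from 0) of Mmp2, Mmp14 and Adamts5 in each mouse (points) of the untreated WT (grey) and R6/2 (ochre) groups, with group means (lines), control mice left and vehicle mice right of the divider. Mmp2 and Mmp14 are higher in R6/2 with a wider gap in vehicle mice, where WT Mmp2 is at 51.4 and 51.3 CPM, and Adamts5 is lower in both experiments, a difference that was 0 with library size scaling.

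Hsf1-/- mice did not differ detectably from WT mice in any of the 9 genes when untreated. In the mean over both experiments no member was called by edgeR or DESeq2 and none had an unadjusted p below 0.05, beside 0.974% of genes called. These mean differences ranged from -0.16 for Timp2 to 0.65 for Adamts4, the latter with an SE of 0.76. In control mice alone and in vehicle mice alone edgeR called no member, beside 1.93% and 0.0872% of genes. In each, 1 of the 9 had an unadjusted p below 0.05. Timp3 was at 373 and 429 CPM in Hsf1-/- against 279 and 244 CPM in WT control mice (0.62, adjusted p = 0.082 by edgeR), and at 355 and 355 against 368 and 486 CPM in vehicle mice (-0.27, adjusted p = 0.70). The difference between these values was 0.89 (adjusted p = 0.17). In that test, chosen after seeing the data, no member was called beside 0.0654% of genes, and 2 of the 9 had an unadjusted p below 0.05.

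After treatment Mmp2 and Mmp14 were called in no genotype. Mmp14 was at 12.7 and 12.2 CPM in WT control and 9.96 and 8.07 CPM in WT HS mice, without overlap (-0.47, SE 0.195, adjusted p = 0.33 by edgeR). The HS response of Mmp14 in Hsf1-/- mice differed from that in WT mice by 0.66, which was not called. Mmp2 was at 51.4 and 51.3 CPM in WT vehicle and 85.2 and 92.2 CPM in WT HSP990 mice, without overlap (0.79, SE 0.263, adjusted p = 0.16 by edgeR). With only the 4 libraries compared the adjusted p was 0.033. All 9 fibroblast markers were higher after HSP990 in these mice, none of them called, and they summed to 1080 and 1090 CPM with vehicle and 1790 and 1850 CPM with HSP990. All 6 macrophage and leukocyte markers were also higher, 1 of them called, with sums of 26 and 26.1 against 37.1 and 60.1 CPM, as were 6 of the 7 endothelial markers, with sums of 382 and 462 against 556 and 631 CPM. The part of these cells in the Mmp2 values was not tested. The WT control mice of the HS experiment already had 78.9 and 90.9 CPM of Mmp2. In R6/2 and Hsf1-/- mice the HSP990 response of Mmp2 was -0.07 and 0.04.

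Adamts4, an aggrecanase induced in many inflamed tissues, rose after HS in the mean over the 3 genotypes. It lies on chromosome 1 (173180552 to 173190768, plus strand, mm9). In WT mice it had 7 and 10 counts in controls and 24 and 71 after HS, in R6/2 mice 10 and 14 against 99 and 35, and in Hsf1-/- mice 5 and 15 against 99 and 43. Scaled, the 6 control mice were at 0.199 to 0.709 CPM and the 6 HS mice at 0.895 to 3.85 CPM, so that control and HS mice did not overlap in any genotype. The vehicle mice, which had not been heated, were at 0.0828 and 0.465 CPM in WT, 0.428 and 1.03 in R6/2 and 0.706 and 0.374 in Hsf1-/- mice. The value of 1.03 lay above an R6/2 HS mouse at 1.01 CPM and a WT HS mouse at 0.895 CPM.

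The log2 fold changes of Adamts4 were 2.46 in WT (adjusted p = 0.30 by edgeR), 2.51 in R6/2 (0.45) and 2.63 in Hsf1-/- mice (0.39), none of them called. Their mean, chosen after seeing the data, was 2.53 (SE 0.562, adjusted p = 0.011), or 5.79-fold. Leaving out any 1 of the 12 mice gave means between 2.17 and 2.92, with adjusted p of at most 0.048. Of the 6 macrophage and leukocyte markers 1, 2 and 4 were higher after HS in WT, R6/2 and Hsf1-/- mice, with medians of -0.32, -0.11 and 0.39. None of these was called in a single genotype, and in the mean over the 3 genotypes 3 were higher, 1 of them called. Their part in the Adamts4 values was not tested. The neutrophil markers moved the same way as Adamts4, at low levels, and 2 of them passed the filter on low counts. The 3 markers analysed (S100a8, S100a9 and Mpo) summed to 0.0373 and 0.63 CPM in WT controls and 2.79 and 3.92 CPM after HS, to 0.101 and 0.22 against 1.44 and 6.27 CPM in R6/2 mice, and to 0.378 and 0.478 against 2.57 and 4.45 CPM in Hsf1-/- mice, and their part in the Adamts4 values was not tested. After HSP990, Adamts4 was at 0.242 to 0.499 CPM in WT, 0.0517 to 0.209 CPM in R6/2 and 0.219 to 2.2 CPM in Hsf1-/- mice, and was called in none. The neutrophil markers summed to 0.146 and 7.34 CPM in those R6/2 HSP990 mice. Ly6g was not analysed here.

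**Figure D5:**
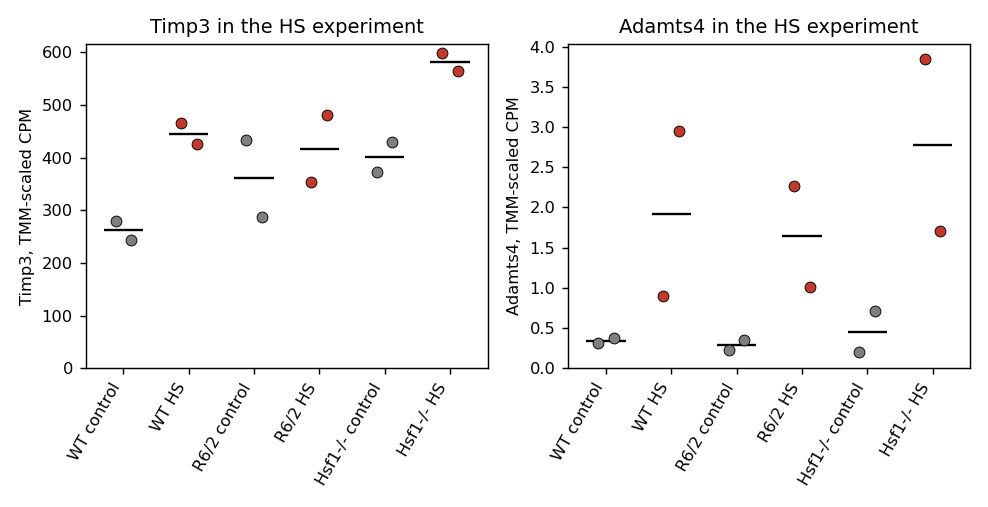
TMM-scaled CPM (vertical axes, linear from 0) of Timp3 and Adamts4 in each of the 2 mice (points) of the control (grey) and HS (red) groups of the 3 genotypes, with group means (lines). All 6 HS mice lie above all 6 control mice for Adamts4, while for Timp3 the R6/2 groups overlap.

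Adamts1, which also cuts versican and aggrecan, lies on chromosome 16 like Adamts5 (85794072 to 85803358, minus strand, mm9) and was among the more variable members. In WT mice it was at 70 and 94.4 CPM in controls and 53.1 and 46.2 CPM after HS, without overlap (-0.73, SE 0.436, adjusted p = 0.58 by edgeR). The Hsf1-/- HS mice were at 181 and 51.2 CPM, the widest gap between mice of a group for this gene. With only the 4 WT libraries compared, Adamts1 was called after HS (-0.72, adjusted p = 0.047). Adamts5 was called after neither treatment in any genotype, with differences of -0.27 to 0.38.

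Responses were not shown to differ between genotypes for any of the 9 genes. No member was called by edgeR or DESeq2 for the HS response of R6/2 against WT mice, beside 0.0727% of genes, or of Hsf1-/- against WT mice, beside 0.16%, and 1 of the 9 had an unadjusted p below 0.05 in each. None was called for the HSP990 response of R6/2 against WT mice, where edgeR called 0% of genes (0 of 13754, with 981 at an unadjusted p below 0.05) and DESeq2 47 genes, or of Hsf1-/- against WT mice, beside 0.422% of genes, with 2 and 1 of the 9 at an unadjusted p below 0.05. The HSP990 response of Mmp14 differed from that of WT mice by -0.72 in R6/2 (adjusted p = 0.58 by edgeR) and by -0.67 in Hsf1-/- mice (adjusted p = 0.63), and that of Mmp2 by -0.86 in R6/2 mice (adjusted p = 0.66). The response of all 9 fibroblast markers was also lower in both genotypes than in WT mice, with medians of -0.68 and -0.30 in R6/2 and Hsf1-/- mice. The same held for all 6 macrophage and leukocyte markers, with medians of -1.05 and -0.62, while 5 of the 7 endothelial markers were lower in R6/2 (median -0.32) and all 7 in Hsf1-/- mice (median -0.38). None of these markers was called, and their part in the Mmp2 and Mmp14 values was not tested.

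Over the 12 group means of log2(CPM + 0.5), the genes most like Timp4 were Xdh (r = 0.92) and Sult1a1 (r = 0.91). Xdh, xanthine dehydrogenase, averaged 104 ± 28 CPM (SD, n = 2) with vehicle and 40.8 ± 3.05 CPM with HSP990 in WT mice, and 106 ± 14.1 CPM after HS. Those most like Mmp2 were Vps26c and Reck (both r = 0.94), and Mmp2 and Timp2 had r = 0.94 with each other. Reck encodes a membrane-anchored inhibitor of MMPs. The gene most like Adamts5 was Fermt2 (r = 0.98), most like Mmp14 was Erbb2 (r = 0.94), most like Adamts4 was Bcl3 (r = 0.94) and most like Timp3 was Sgms1 (r = 0.88). These are descriptions over 12 points that share genotypes and libraries, picked as the highest of 11112 genes.

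The wider protease system was described from lists of 83 genes, of which 78 were matched and 70 tested. After HS in WT mice 2 of the 70 rose and 1 fell, or 4.29% beside 2.06% of all genes. Adamts15, another versican-cutting ADAMTS enzyme, rose from 4.72 ± 0.446 to 14.7 ± 4.22 CPM (1.64, adjusted p = 0.047 by edgeR). Adam19, a membrane-bound sheddase, fell from a mean of 12.9 to 6.29 CPM (-1.04, adjusted p = 0.045). In R6/2 and Hsf1-/- mice none of the 70 was called after HS, where 0.0436% and 0.00727% of all genes were. In the mean over the 3 genotypes 10 rose and 2 fell, or 17.1% beside 6.14% of all genes. Among them Serpina3n, a serine protease inhibitor of the acute phase, rose by 2.23 (adjusted p = 0.00036) and Plaur, the urokinase receptor, by 1.86 (adjusted p = 0.0013). Mmp8, a collagenase known from neutrophils, rose by 2.86 (adjusted p = 0.022) with group means of at most 1.32 CPM, and Mmp11 fell (-0.93, adjusted p = 0.0027).

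After HSP990, 2 of the 70 rose and 1 fell in WT mice, or 4.29% beside 1.85% of all genes. Plat, tissue plasminogen activator, rose by 1.54 (adjusted p = 0.0023 by edgeR) and Adamts20 by 1.32 (adjusted p = 0.042), and Adamtsl4, an ADAMTS-like protein of elastic fibres without protease activity, fell from a mean of 77.1 to 26.8 CPM (-1.52, adjusted p = 0.038). In R6/2 mice 2 of the 70 fell, or 2.86% beside 1.43% of all genes, among them Serpina3n (-2.69, adjusted p = 0.019). In Hsf1-/- mice none was called, beside 0.218% of all genes. In the mean over the 3 genotypes 4 rose and 3 fell, or 10% beside 4.65% of all genes. Adamts8 rose by 1.87 (adjusted p = 0.0037) and Serpina3n fell (-1.67, adjusted p = 0.0041). Adamts8 averaged 1.49, 0.508 and 1.8 CPM with vehicle and 5.79, 1.18 and 9.83 CPM with HSP990 in WT, R6/2 and Hsf1-/- mice. The controls of the HS experiment, given no HSP990, averaged 5.63, 0.698 and 5.02 CPM.

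In untreated R6/2 mice 3 of the 70 were higher and 5 lower than in WT mice, or 11.4% beside 30.5% of all genes. Furin, the convertase that activates MMP14, was higher by 0.97 (adjusted p = 1.5e-05 by edgeR), with Serping1 (0.60, adjusted p = 0.0068) and Adam17 (0.34, adjusted p = 0.041). Bsg, the MMP inducer basigin, was lower (-1.39, adjusted p = 5.4e-07), as were Adam12, Adamts8, Adamts3 and Serpine2. Serpine2, protease nexin 1, was also the 1 gene of the 70 called in untreated Hsf1-/- mice (-0.62, adjusted p = 0.0097), or 1.43% beside 0.974% of all genes, which is close to the share over all genes.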

How the data were processed

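Quadriceps RNA of 24 mice was analysed as raw counts. The authors selected polyA RNA, made strand-specific libraries, mapped paired reads to mm9 with Bowtie and deposited read counts per gene without normalization. The submitters' processing notes also name DESeq2. The counting program, its strand setting and the annotation are not given in the sources used here.

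Of 18669 NCBI gene numbers, 18594 were matched to symbols. A gene was tested if 10 or more libraries held 2 or more counts of it (13754 genes). Counts were scaled with TMM, and 1 model of all 12 groups was fitted with the quasi-likelihood method of edgeR (version 4.0.16, with limma 3.58.1 in R 4.3.3), which left 12 residual degrees of freedom. Adjustment was by Benjamini-Hochberg within each comparison at 0.05. With 2 mice a group, an exact permutation test could not go below p = 0.333, so the spread was pooled over all groups. Library totals were 22450177 to 46599238 counts, and p-values measure only the spread between these mice. The procedure was tested on simulated data with changes placed only in better-counted genes, so that test does not cover genes as low as Timp1 and Adamts4.

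The members and lists were chosen with earlier results of these data known. Beyond the members, the genes named are Hsf1, genes overlapping a member, up to 3 called genes with the largest change per list and comparison, and the 2 genes most like each member. An item that this rule would name is counted but not reported here. Transcripts of the members were searched against mm9 with minimap2 2.31-r1302, and no near-identical copy was found (0.5 or more of the transcript, divergence up to 0.1). Alternatives were RLE factors, library size only, no filter, filterByExpr, DESeq2 1.42.0, only the groups compared, control or vehicle mice only, a replicate block, a pseudocount of 1 CPM and leaving out each mouse. Means over the 3 genotypes and the test of control against vehicle mice were chosen after seeing the data. Promoter windows are from RefSeq (GRCm38.p6).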

Additional observations from a re-analysis of the deposited data

How the results depend on the processing

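Of the fold changes of named members recomputed under the alternatives, 457 kept their direction and side of the threshold, 20 lost and 11 gained a call, and none reversed. These were members with an unadjusted p below 0.05 in a comparison, or called in a mean over the 3 genotypes. Many had not been called, and for those keeping their side of the threshold means staying uncalled. The mean over the 3 genotypes kept 2 members called after HS and 1 after HSP990 in every alternative run. After HS in WT mice the count of 1 became 0 with library size only and 2 with only the groups compared, and was 0 to 0 without any 1 mouse. With only the groups compared, HSP990 gave 2 members in WT, 0 in R6/2 and 0 in Hsf1-/- mice, and without 1 mouse 0 to 1 in Hsf1-/- mice. The count of 3 in untreated R6/2 mice became 1 in control mice only and 4 with library size only, with only the groups compared and with DESeq2, and was 3 to 4 without 1 mouse. For the HS against the HSP990 response in R6/2 mice the count of 1 became 0 with library size only and with only the groups compared, 2 with DESeq2 and 0 to 1 without 1 mouse. In Hsf1-/- mice the count of 0 became 1 with no filter, with only the groups compared and with DESeq2. The differences between replicates 1 and 2 correlated from -0.22 to 0.32 between the groups of the 6 treatment comparisons, highest for HS in Hsf1-/- mice. This correlation cannot show whether same-numbered mice shared more than a number. The replicate block gave 0 members for the HS against the HSP990 response in R6/2 mice (Timp4 1.88, adjusted p = 0.059 by edgeR). It changed no other count of members, while the genes called after HS in Hsf1-/- mice went from 1 to 9. Fits without 1 mouse assume that the lone mouse left varies like the other groups. The causes were not tested. With 2 mice a group and at most 99 counts, edgeR called no change in Timp1 or Adamts4 within a genotype. DESeq2 called Adamts4 for the HS against the HSP990 response in R6/2 mice (4.97, adjusted p = 0.013). There edgeR gave 4.9 (adjusted p = 0.11), and the values rest on few reads.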
